A study of Mus musculus with 36 samples.

Results

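The matrix proteases and inhibitors described here are 10 genes, namely Adamts1, Adamts4, Adamts5, Adamts9, Adamts15, Mmp2, Mmp14, Timp1, Timp2 and Timp3, found by symbol among the 51912 Ensembl gene IDs of the count tables. All 10 were found, each under 1 ID, and all 10 passed the filter on low counts in every comparison. The set was chosen because the level of Adamts4 was lower in mutant muscle, so the values between genotypes below are a description and nothing is read from the counts of calls among them. RNA-seq was done on the tibialis anterior (TA), a muscle rich in fast fibers, and the soleus, which is rich in slow fibers, with 9 libraries in each of 4 groups and 36 in all. The groups were WT soleus, ∆Ig3-MuSK soleus, WT TA and ∆Ig3-MuSK TA, all from male C57BL/6 mice at 3 months of age. In ∆Ig3-MuSK mice, CRISPR-Cas9 editing removed from both Musk alleles the exons for the Ig3 domain, the part of the receptor kinase MuSK that binds BMP. The deletion was made in the germline, so every cell of the mutant carried it and the muscle fibers cannot be told apart from the other cells of the muscle. Each library holds whole muscle, with its connective tissue, vessels and nerves. The labels give no treatment, and the TA and soleus counts came in separate tables, so a difference between muscles and a difference between tables cannot be told apart.

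The matrix around muscle fibers is cut by zinc-dependent proteases and kept in check by their inhibitors. ADAMTS proteases are secreted enzymes, several of which cleave the large proteoglycans versican and aggrecan. Mmp2 is a secreted gelatinase, Mmp14 is a membrane-bound protease that activates the Mmp2 proenzyme, and the TIMP proteins bind the active site of such enzymes. In muscle these transcripts are known from connective tissue and vessel cells as well as from the fibers, so in bulk RNA fewer cells of a type and less RNA per cell cannot be told apart.

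RefSeq promoter windows (GRCm38.p6, matched by symbol) were at hand for 6 of the 10 genes, namely Adamts1, Adamts9, Mmp14, Timp1, Timp2 and Timp3. The 250 bases before the start are shown for Adamts1, whose order between the muscles was opposite in the 2 genotypes, for Mmp14, which had a lower mean in the mutant soleus, and for Timp3, whose mean was higher in the mutant of both muscles. Capitals mark letters searched on both strands. They are TATAAA, a core promoter element, and GGGCGG, the element bound by Sp1 and named the GC box below. The windows are Adamts1 on chr16:85803114-85803363 (minus strand), Mmp14 on chr14:54431348-54431597 (plus strand) and Timp3 on chr10:86300162-86300411 (plus strand).
Adamts1: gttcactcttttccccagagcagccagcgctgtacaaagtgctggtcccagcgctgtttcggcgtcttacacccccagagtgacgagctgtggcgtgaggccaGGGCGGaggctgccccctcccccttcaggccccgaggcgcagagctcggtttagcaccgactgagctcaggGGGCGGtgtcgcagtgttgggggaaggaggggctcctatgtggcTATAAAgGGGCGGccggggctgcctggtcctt
Mmp14: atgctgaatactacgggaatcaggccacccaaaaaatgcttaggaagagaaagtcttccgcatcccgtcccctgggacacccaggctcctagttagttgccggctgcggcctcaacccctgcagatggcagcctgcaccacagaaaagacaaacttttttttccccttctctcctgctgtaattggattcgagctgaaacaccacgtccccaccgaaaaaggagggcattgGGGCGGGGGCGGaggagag
Timp3: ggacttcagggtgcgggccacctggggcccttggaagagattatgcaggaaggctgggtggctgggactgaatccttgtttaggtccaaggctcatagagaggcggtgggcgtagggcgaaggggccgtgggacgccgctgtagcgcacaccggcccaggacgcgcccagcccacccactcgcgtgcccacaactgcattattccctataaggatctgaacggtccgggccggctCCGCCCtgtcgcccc

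The Adamts1 window held the former at bases -32 to -27 from the start and 3 GC boxes, whereas the Mmp14 window held 2 adjoining GC boxes and the Timp3 window 1 GC box on the opposite strand. Of 32851 such windows in the RefSeq table, 12.4% held TATAAA and 32.7% held GGGCGG. The letters TGANTCA (the AP-1 element, bound by Fos and Jun proteins) and CACGTG (an E-box) were in none of the 6 members' windows, against 6.75% and 6.02% of all windows. The letters GGCGCC, a SMAD-binding element of BMP-responsive genes, were in the Adamts9 window alone of the 6 and in 9.59% of all windows. A match is a run of letters and no shown binding site.

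The libraries held between 43492062 and 78660422 counts. As a check of the labels, the summed level of 5 slow-fiber genes was 16390 CPM (reads of a gene relative to the size of its library, corrected by TMM factors from all 36 libraries) in WT soleus and 73.9 CPM in WT TA. For the edited gene Musk, which is still transcribed from the edited alleles, the means were 15.2 ± 1.82 CPM (SD of 9 libraries, as for every ± below) in WT soleus, 11.3 ± 3.29 in the mutant soleus, 4.25 ± 0.948 in WT TA and 3.09 ± 0.391 in the mutant TA, and a count over the whole gene does not check the deletion itself. Its soleus libraries all lay above its TA libraries in both genotypes, as 14.6% of genes did in WT and 14.8% in the mutant. Some libraries stood apart. Replicate 8 of ∆Ig3-MuSK soleus had the lowest summed level of 6 tendon markers, 23.9 CPM against a group mean of 279. For 5 macrophage markers, with a group mean of 35.4 CPM, it was at 21.0 CPM, and replicate 2 was lowest at 11.9. Among the ∆Ig3-MuSK libraries, soleus replicates 4 and 5 stood apart in Timp3, and so did TA replicates 5 and 6, which carry the same pair of label numbers. These 4 are called the high-Timp3 libraries below. Values without replicate 8 or the high-Timp3 libraries are given where they differ most from those with them.

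The members differed widely in level, and the order was nearly the same in the 4 groups. Per kilobase of exon, Timp2 was highest in WT soleus at 22.9 ± 4.74 CPM per kb, followed by Mmp2 at 20.3 ± 5.41, which did not differ from it beyond their spread. Timp3 came next at 10.01 ± 0.912 CPM per kb and Adamts1 at 6.04 ± 2.1. Mmp14, at 3.36 ± 0.804 CPM per kb, and Timp1, at 2.82 ± 1.42, overlapped in their spread.
The other ADAMTS transcripts were scarcer. Adamts5 was at 1.52 ± 0.192 CPM per kb, Adamts9 at 0.495 ± 0.146, Adamts15 at 0.419 ± 0.0668 and Adamts4 at 0.337 ± 0.0948, and each of the last 3 lay within the spread of its neighbour. Adamts4 was lowest of the 10 in all 4 groups, and in ∆Ig3-MuSK soleus it was at 0.132 ± 0.0625 CPM per kb. Summed by role, the 3 TIMPs reached 35.7 ± 6.56 CPM per kb in WT soleus, the 2 MMPs 23.7 ± 6.17 and the 5 ADAMTS proteases 8.81 ± 2.08. In ∆Ig3-MuSK soleus the summed ADAMTS level was 6.14 ± 1.09 CPM per kb and the summed MMP level 17.0 ± 4.9, whereas the TIMPs were at 34.8 ± 10.9. Most of the ADAMTS sum was Adamts1, at 4.01 ± 0.741 CPM per kb there, and most of the MMP sum was Mmp2, at 14.6 ± 4.54. Without the high-Timp3 libraries the 3 sums of ∆Ig3-MuSK soleus were 6.02 ± 1.17, 16.1 ± 5.31 and 30.4 ± 7.23 CPM per kb (SD of 7 libraries). In the TA the ADAMTS sum was 6.87 ± 1.38 CPM per kb in WT and 7.98 ± 1.59 in ∆Ig3-MuSK.

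**Figure D1:**
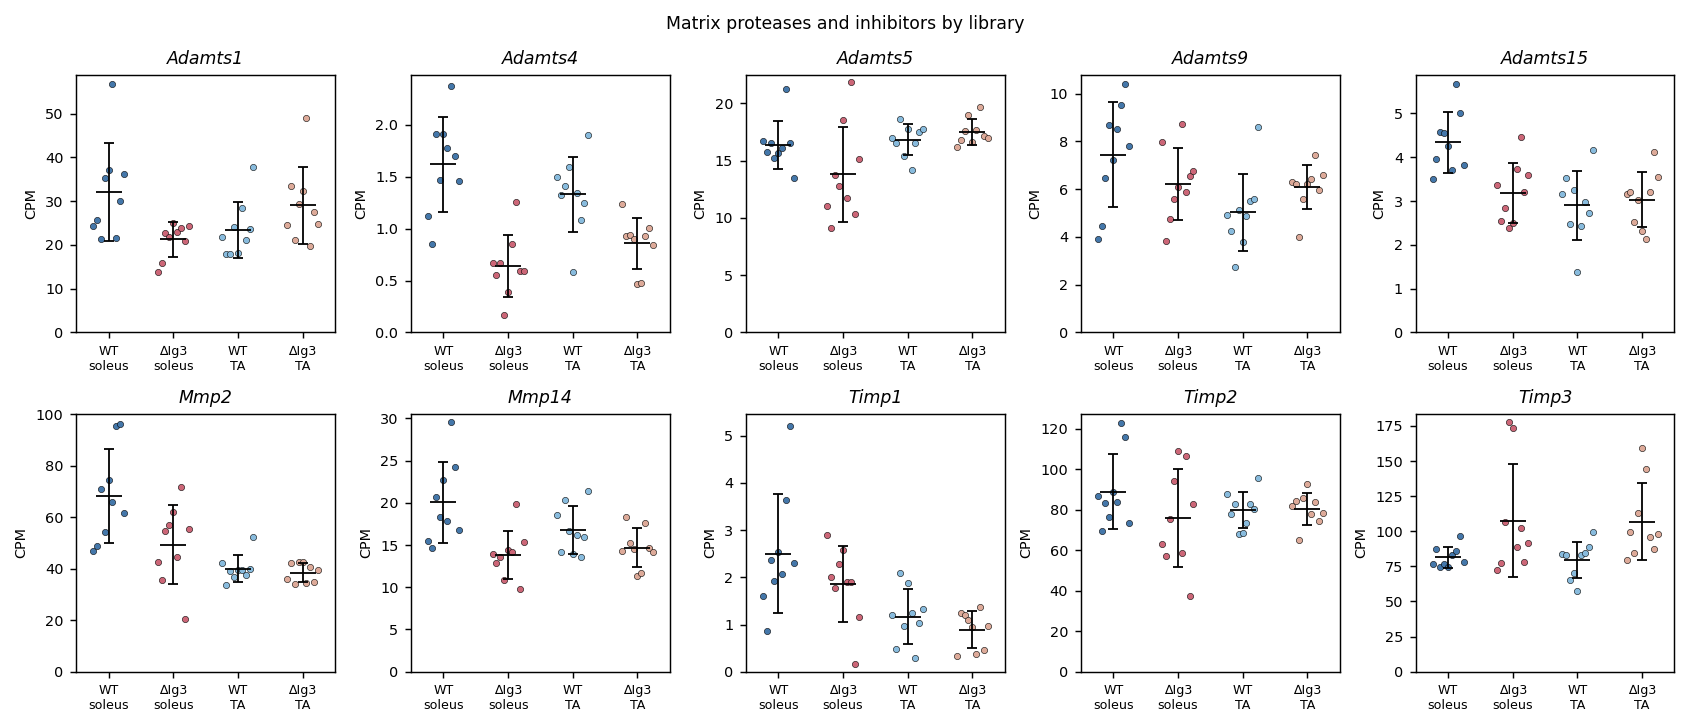
Level of each member in CPM (vertical axes, from 0) in the 36 libraries of the 4 groups. Points are libraries, and bars give the mean ± SD of 9 libraries. Adamts4 lies at 0.166 to 1.25 CPM in ∆Ig3-MuSK soleus and at 0.848 to 2.38 in WT soleus, and 2 libraries of each ∆Ig3-MuSK group stand above the rest in Timp3.

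Adamts4, an aggrecan- and versican-cleaving protease, gave the choice of the set. In WT soleus it ranged from 0.848 to 2.38 CPM with a median of 1.70, and in ∆Ig3-MuSK soleus from 0.166 to 1.25 with a median of 0.596. In the TA it ranged from 0.581 to 1.90 CPM in WT (median 1.35) and from 0.466 to 1.24 in ∆Ig3-MuSK (median 0.926). In the soleus 7 of 9 mutant libraries lay below the lowest WT library, in the TA 2 of 9 did, and in both muscles all 9 lay below the WT mean. These levels rest on few reads, 9 to 67 counts per library in ∆Ig3-MuSK soleus and 41 to 141 in WT soleus. The log2 fold change of mutant over WT was -1.36 (SE 0.25) in the soleus and -0.64 (SE 0.19) in the TA. Without the high-Timp3 libraries it was -1.14 in the soleus and -0.47 in the TA, and without replicate 8 it was -1.34 in the soleus. The gene lies on chr1:171250421-171260637 (plus strand, GRCm38).

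Of the other ADAMTS members, Adamts1 (chr16:85793827-85803113, minus strand), which cleaves versican, had a lower mean in the mutant soleus and a higher mean in the mutant TA. It ranged from 21.4 to 56.8 CPM in WT soleus (median 30.0) and from 13.7 to 25.1 in ∆Ig3-MuSK soleus (median 22.7). In the TA the order was the other way, with 17.9 to 37.8 CPM in WT (median 21.9) and 19.8 to 49.0 in ∆Ig3-MuSK (median 27.4). All 9 mutant soleus libraries lay below the WT soleus mean, whereas 2 of 9 mutant TA libraries lay below the WT TA mean. The log2 fold change of mutant over WT was -0.60 (SE 0.17) in the soleus and 0.31 (SE 0.16) in the TA, where it was 0.14 without the high-Timp3 libraries. Adamts15 (chr9:30899155-30922452, minus strand), which also cleaves versican, was at 3.51 to 5.67 CPM in WT soleus and 2.38 to 4.45 in ∆Ig3-MuSK soleus, with 6 of 9 mutant libraries below the lowest WT library. Mutant over WT, this was a log2 fold change of -0.46 (SE 0.12), or -0.37 without the high-Timp3 libraries, against 0.06 (SE 0.16) for the TA. Adamts5 (chr16:85856173-85901828, minus strand), a major aggrecanase, and Adamts9 (chr6:92772699-92943492, minus strand), a secreted protease with versican among its substrates, differed less. Adamts5 had a log2 fold change of -0.25 (SE 0.14) in the soleus, where 5 of 9 mutant libraries lay below the lowest WT library and 1 lay above the highest. Adamts9 had log2 fold changes of -0.27 (SE 0.18) in the soleus and 0.27 (SE 0.15) in the TA. Exons of Adamts9 overlap those of A730049H05Rik and Gm15737 on the opposite strand, by 1381 and 424 bp, and the means of these genes were all between 0.354 and 0.694 CPM.

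Both MMP members had lower means in the mutant soleus. Mmp14 (chr14:54431612-54445364, plus strand) ranged from 14.7 to 29.6 CPM in WT soleus (median 18.3) and from 9.74 to 19.8 in ∆Ig3-MuSK soleus (median 13.9), with 7 of 9 mutant libraries below the lowest WT library. In the TA it ranged from 13.6 to 21.4 CPM in WT and from 11.3 to 18.3 in ∆Ig3-MuSK. The log2 fold change was -0.54 (SE 0.14) in the soleus and -0.19 (SE 0.10) in the TA, where it was -0.11 without the high-Timp3 libraries. Mmp2 (chr8:92827291-92853420, plus strand) ranged from 46.8 to 96.4 CPM in WT soleus (median 65.9) and from 20.3 to 71.6 in ∆Ig3-MuSK soleus (median 54.6), with a log2 fold change of -0.48 (SE 0.19). The lowest of these values was that of replicate 8, without which the log2 fold change was -0.38, and without the high-Timp3 libraries it was -0.57. Mmp2 ranges in the TA were 33.7 to 52.5 CPM and 34.0 to 42.5, with a log2 fold change of -0.06 (SE 0.07).

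Among the inhibitors, Timp3 (chr10:86300372-86349506, plus strand), which binds the matrix and inhibits ADAMTS proteases as well as MMPs, had the higher mean in the mutant. It ranged from 74.3 to 96.5 CPM in WT soleus (median 78.2) and from 72.4 to 177.6 in ∆Ig3-MuSK soleus (median 91.7). In the TA it ranged from 57.4 to 99.5 CPM in WT (median 83.1) and from 79.5 to 159.2 in ∆Ig3-MuSK (median 98.3). The highest values belonged to the same label numbers in both muscles. Soleus replicate 4 was at 177.6 CPM and TA replicate 5, of the same number, at 159.2, and soleus replicate 5 and TA replicate 6 were at 173.6 and 144.1. The other 7 mutant libraries lay between 72.4 and 106.6 CPM in the soleus and between 79.5 and 113.0 in the TA. The log2 fold change of mutant over WT was 0.39 (SE 0.16) in the soleus and 0.43 (SE 0.13) in the TA, and without these libraries 0.10 (SE 0.08) and 0.24 (SE 0.10). Timp3 lies inside Syn3 on the opposite strand and shares 1733 bp of exon with it. Syn3, a synapsin gene, was counted at 77.4 and 76.2 CPM in soleus and 66.8 and 62.1 in TA of the same libraries, against 32.3 to 48.5 in the other mutant libraries, so the reads of the pair cannot be told apart there. Timp1 and Timp2 had lower means in the mutant soleus. Timp1 (chrX:20870166-20874735, plus strand) ranged from 0.868 to 5.21 CPM in WT soleus and from 0.158 to 2.91 in ∆Ig3-MuSK soleus, the lowest value being 7 counts in replicate 8. Its log2 fold change was -0.44 (SE 0.33) in the soleus, -0.29 without replicate 8 and -0.58 without the high-Timp3 libraries. In the TA it was -0.40 (SE 0.31), or -0.30 without the high-Timp3 libraries. Timp2 (chr11:118301069-118355740, minus strand), the most abundant member per kb, had log2 fold changes of -0.24 (SE 0.17) in the soleus, which was -0.14 without replicate 8 and -0.38 without the high-Timp3 libraries, and of 0.01 (SE 0.07) in the TA.

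In the soleus the estimates of 9 of 10 members were below 0, with a median log2 fold change of -0.45 against -0.0017 over all 19439 genes tested. In the TA 4 of 10 were, with a median of 0.04 against -0.0032 over 20075 genes. With edgeR's quasi-likelihood test, an adjusted p under 0.05 and at least a 1.2-fold change, 1 of 10 members (Adamts4) was called in the soleus, where 0.952% of genes were called and 0.586% were called lower and 0.365% higher. An unadjusted p under 0.05 was found for 6 of 10 members there, against 18.5% of genes. In the TA 0 of 10 were called, 2 of 10 had an unadjusted p under 0.05, against 24.1% of genes, and 0.0149% of genes were called higher and 0.0% lower. DESeq2 called 4 members in the soleus (Adamts1, Adamts4, Adamts15 and Mmp14) and 0 in the TA, and limma-voom called 3 and 1. Without the high-Timp3 libraries, and also without replicate 5 of WT soleus, edgeR called 0 members in the soleus. Since the set was chosen on this contrast, nothing is read from these counts. No member had all 9 mutant libraries below or above all 9 WT libraries, which 0.0432% and 0.0288% of genes had in the soleus and 0.0096% and 0.0192% in the TA.

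**Figure D2:**
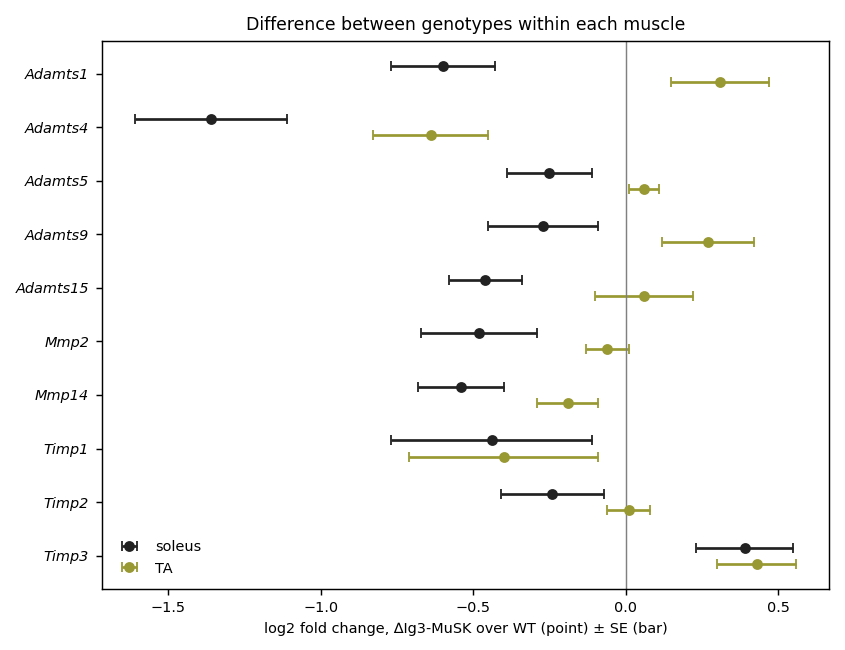
Log2 fold change of ∆Ig3-MuSK over WT (horizontal axis) for the 10 members, in the soleus (black) and the TA (olive). Points are edgeR estimates from 9 against 9 libraries and bars are ± SE. In the soleus 9 of 10 points lie below 0, with Adamts4 at -1.36. In the TA 6 lie above 0 and 4 below. Farthest from 0 there are Adamts4 at -0.64, Timp3 at 0.43, Timp1 at -0.40 and Adamts1 at 0.31.

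Summed markers of several other cells differed in mean between the genotypes in the soleus. The summed level of 6 fibroblast markers ranged from 597 to 1673 CPM in WT soleus and from 359 to 954 in ∆Ig3-MuSK soleus, with 6 of 6 estimates below 0 and 0 called. Most of that difference lay in Col1a1 (means 300.7 and 154.9 CPM) and Col3a1 (277.3 and 172.1), which are also among the collagen genes below. The means of the other markers were 255.7 and 239.2 CPM for Dcn, 24.7 and 21.7 for Pdgfra, 29.5 and 29.4 for Dpt and 41.8 and 30.5 for Pi16. The 6 tendon markers summed to 262 to 687 CPM in WT soleus and 23.9 to 465 in ∆Ig3-MuSK soleus, also with 6 of 6 estimates below 0 and 0 called by edgeR. In each of these lists 2 of 6 genes had an unadjusted p under 0.05, against 18.5% of all genes. Without replicate 8 the tendon mean of ∆Ig3-MuSK soleus was 310.5 CPM, and without the high-Timp3 libraries 241 CPM, against 279 with all. The 5 endothelial markers summed to 261 to 353 CPM and 213 to 307. None of these markers was at 0 in a group, and the tendon markers Scx and Tnmd had mean levels of 17.5 and 19.3 CPM in WT soleus and 12.7 and 13.4 in ∆Ig3-MuSK soleus. In the TA the fibroblast sums were 594 to 1041 CPM in WT and 556 to 778 in ∆Ig3-MuSK. All 6 tendon estimates were below 0 in the TA as well, with a median log2 fold change of -0.37 and 0 called. Of these 6, 3 had an unadjusted p under 0.05, against 24.1% of all genes. Of 5 smooth muscle and pericyte markers, 4 estimates were below 0 in the soleus and Acta2, smooth muscle actin, was called lower (log2 fold change -0.38, SE 0.09, edgeR adjusted p = 0.0496). Of 5 neuron markers, 4 estimates were above 0, with a median log2 fold change of 0.66, and Gad1 (0.93, SE 0.20, edgeR adjusted p = 0.032) and Syt1 (0.84, SE 0.19, edgeR adjusted p = 0.039) were called higher. These 3 genes are named because they were called, after their values were seen. All 4 adipocyte and all 5 red blood cell estimates were above 0, with medians of 0.62 and 0.29 and 0 called. The part of these cells in the protease levels was not tested.

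**Figure D3:**
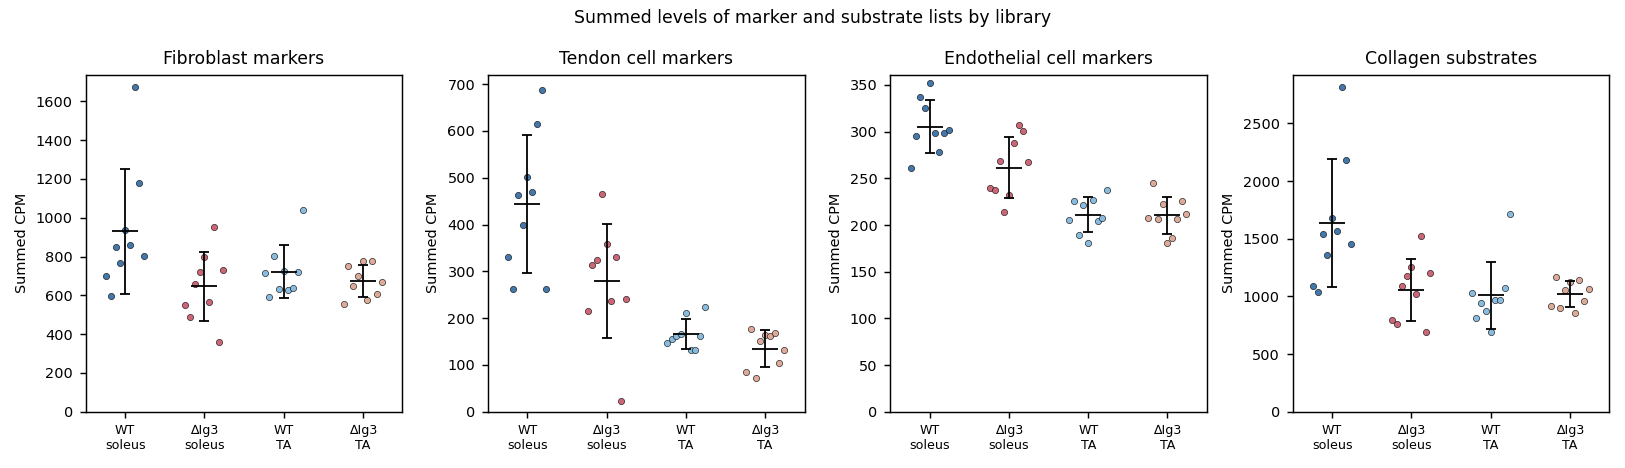
Summed CPM (vertical axes, from 0) of the fibroblast, tendon and endothelial markers and of 10 collagen genes in the 36 libraries. Points are libraries and bars are the mean ± SD of 9. Col1a1 and Col3a1 are in both the fibroblast and the collagen sums. In the soleus the ∆Ig3-MuSK means are below the WT means, for collagens 1057 against 1636 CPM. In the TA the collagen means are close, at 1021 against 1009, whereas all 6 tendon estimates were below 0, with a median of -0.37.

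The comparison of soleus with TA was not used in choosing the genes and could be tested. In WT, 5 of 10 members were higher in the soleus and 0 were lower, where 57.5% of 20841 genes were called by edgeR, 30.2% higher and 27.3% lower. Timp1, which inhibits most MMPs, differed most, with 0.868 to 5.21 CPM (median 2.31) in WT soleus against 0.285 to 2.09 (median 1.19) in WT TA. Its log2 fold change was 1.09 (SE 0.33, edgeR adjusted p = 0.004), and 5 of 9 soleus libraries lay above the highest TA library. For Mmp2, 7 of 9 soleus libraries did, and its log2 fold change was 0.77 (SE 0.15, edgeR adjusted p = 2.1e-05). Adamts15 had a log2 fold change of 0.58 (SE 0.14, edgeR adjusted p = 0.00056) and Adamts9 of 0.56 (SE 0.17, edgeR adjusted p = 0.0041). Adamts1 had 0.45 (SE 0.17, edgeR adjusted p = 0.02), a call that was lost without replicate 6 of WT soleus, its highest library at 56.8 CPM (0.30, adjusted p = 0.093).
The other 5 did not pass. Mmp14 was at 0.26 (SE 0.12, edgeR adjusted p = 0.062), Adamts4 at 0.28 (SE 0.22), Timp2 at 0.16 (SE 0.13), Timp3 at 0.04 (SE 0.15) and Adamts5 at -0.04 (SE 0.11). Scaled by library totals alone, Mmp14 was called as well and the counts of genes over the whole table called higher and lower went from 6297 and 5682 to 8638 and 3615, as the median log2 fold change of all genes moved from 0.0176 to 0.199.

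In ∆Ig3-MuSK mice, 2 of 10 members were higher in the soleus and 2 lower, where 56.1% of genes were called, 28.5% higher and 27.6% lower. Timp1 had a log2 fold change of 1.06 (SE 0.34, edgeR adjusted p = 0.0064), close to its value in WT, with 7 of 9 soleus libraries above the highest TA library. Mmp2 had 0.36 (SE 0.15, edgeR adjusted p = 0.033), and 0.46 (adjusted p = 0.0015) without soleus replicate 8. Adamts1 was lower in the soleus, at -0.45 (SE 0.17, edgeR adjusted p = 0.02), and all 9 soleus libraries lay below the TA mean. That call was lost without TA replicate 6, its highest library at 49.0 CPM (-0.32, adjusted p = 0.082). Adamts5 was lower as well, at -0.34 (SE 0.11, edgeR adjusted p = 0.0047), with 7 of 9 soleus libraries below the lowest TA library and 1 above the highest. Without the high-Timp3 libraries, Adamts5 alone of the 4 stayed past the threshold, and Timp1 was at 0.83 (SE 0.39, edgeR adjusted p = 0.066). Scaled by library totals alone, Adamts5 (-0.28, edgeR adjusted p = 0.061) and Adamts1 (-0.39, edgeR adjusted p = 0.066) were lost, whereas Timp1 and Mmp2 stayed. Mmp2 was lost in 8 of 18 fits that left out a single library. Adamts9 (0.03, SE 0.17) and Adamts15 (0.07, SE 0.14), which were higher in the WT soleus, were not called here.

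**Figure D4:**
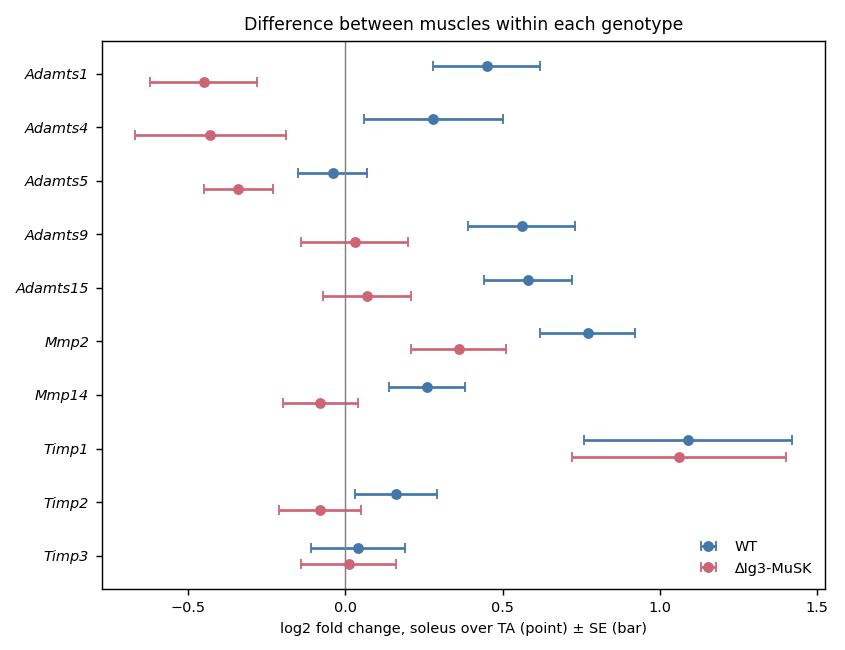
Log2 fold change of soleus over TA (horizontal axis) for the 10 members in WT (blue) and ∆Ig3-MuSK (red). Points are edgeR estimates from a single fit over 36 libraries and bars are ± SE. Timp1 is near 1 in both genotypes, and Adamts1 is at 0.45 in WT and at -0.45 in ∆Ig3-MuSK.

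All 10 interaction estimates (the soleus-over-TA difference in the mutant minus that in WT) were below 0, with a median of -0.38. They hold the genotype difference that chose the set and are given as a description. With edgeR 0 of 10 members and 0.0% of 20841 genes passed, and 5 of 10 members and 24.9% of genes had an unadjusted p under 0.05. The largest estimate was that of Adamts1, at -0.90 (SE 0.24), followed by Adamts4 at -0.71 (SE 0.32), and those nearest 0 were Timp1 at -0.03 (SE 0.48) and Timp3 at -0.03 (SE 0.21). DESeq2 and limma-voom each called Adamts1 alone of the members.

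Within groups, the member closest to Adamts4 was Adamts15. Taking deviations of log2 CPM from the group mean over the 18 libraries of a muscle, their Pearson r was 0.766 in the soleus and 0.816 in the TA, places 23 and 20 among 20840 genes compared with Adamts4. Mmp14 came next, with r of 0.689 and 0.714 (places 84 and 142), and Timp3 was at -0.551 and -0.268. Over all genes the central 95% of r ran from -0.539 to 0.534 in the soleus and from -0.581 to 0.615 in the TA. The genes most like Adamts4 in the soleus were Chek2 (r = 0.877), Wwtr1 (0.851), Clmp (0.841), Spon2 (0.84) and Mex3b (0.84). In the TA they were Unc5b (0.908), Mmp15 (0.894), Clip2 (0.873), Gm15655 (0.867) and Grip2 (0.861). The lists of 5 shared no gene. The points share libraries, depth and tissue makeup, and these values are descriptions. Of the 45 pairs of members, the closest in the soleus was Mmp2 with Timp2, at r = 0.919.

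A TA and a soleus library shared a label number in 16 cases, 8 per genotype, so each member could be compared between muscles over 16 pairs. The labels do not say that a shared number is a single animal, and the comparison was chosen after seeing Timp3, so the values are a description with no test. For Timp3, deviations from group means gave a Pearson's r of 0.774 and a Spearman's rho of 0.753 between the muscles. Without the 2 pairs farthest from the median the r was 0.415, so those pairs raised it. Within genotypes the Timp3 r was 0.571 over 8 WT pairs and 0.9 over 8 mutant pairs. For Adamts9 the rho was 0.779 and the r 0.545, or 0.492 without the 2 farthest pairs. Adamts4 had an r of 0.406, or 0.0292 without the 2 farthest pairs, with 0.865 within the mutant and -0.441 within WT. Adamts4 was lowest in the high-Timp3 libraries among the mutant libraries of both muscles, at 0.166 and 0.392 CPM in soleus and 0.466 and 0.475 in TA, and so was Adamts15, at 2.38 and 2.51 CPM in soleus and 2.31 and 2.13 in TA. Among WT libraries the order was not the same, since TA replicate 5 had the lowest Timp3 of its group, at 57.4 CPM, and also the lowest Adamts15, at 1.39.

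**Figure D5:**
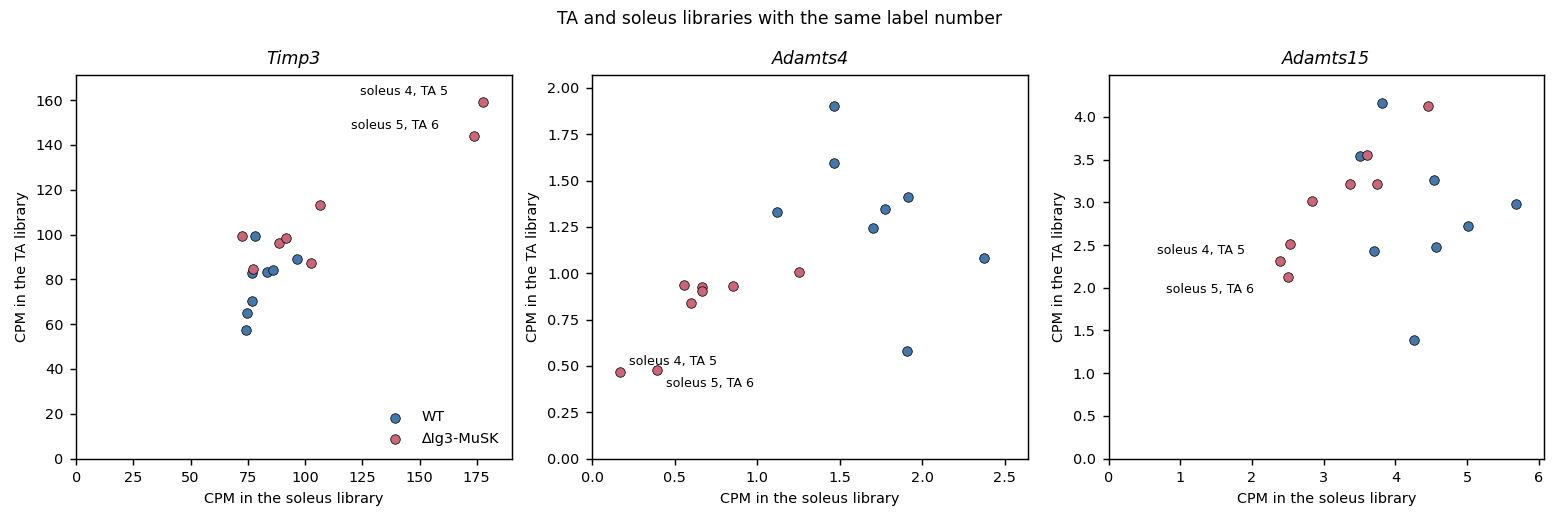
CPM in the soleus library (horizontal axis) against CPM in the TA library (vertical axis) with the same label number, for Timp3, Adamts4 and Adamts15, with 8 WT pairs in blue and 8 ∆Ig3-MuSK pairs in red. The marked pairs, soleus replicates 4 and 5 with TA replicates 5 and 6, lie at the top right for Timp3, at 177.6 and 173.6 CPM in soleus, and lower on both axes than the other ∆Ig3-MuSK pairs for both proteases.

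Other genes of the same pathways were followed as lists. Between the muscles, 30.2% of all genes were called higher and 27.3% lower in the WT soleus. In ∆Ig3-MuSK mice these shares were 28.5% and 27.6%, and the list counts below stand beside them. Of 19 other ADAMTS and ADAMTS-like genes 17 were tested, and 7 were higher and 1 lower in the soleus of WT mice, against 5 higher and 5 lower in ∆Ig3-MuSK mice. Adamts8, with a log2 fold change of 1.76 (SE 0.31, edgeR adjusted p = 5.2e-06), and Adamtsl4, with 1.67 (SE 0.14, edgeR adjusted p = 3.8e-13), differed most in WT. Adamtsl2, which encodes a fibrillin-binding protein, was at 1.00 (SE 0.23, edgeR adjusted p = 0.00026).
Of 19 other MMP genes 12 were tested between the muscles. Of the 9 that passed the filter on low counts in both muscles, 2 were higher and 3 lower in the WT soleus, against 1 and 2 in ∆Ig3-MuSK mice. The other 3, Mmp13, Mmp3 and Mmp27, passed only through the TA, where they were higher, so the filter set their direction and their levels are a description. Mmp13, a collagenase, had a mean of 10.1 CPM in WT TA, with libraries from 0.337 to 19.2, and of 0.0751 CPM in WT soleus, where the highest library was at 0.168. Mmp3, known as stromelysin, had a mean of 0.739 CPM in WT TA and 0.158 in WT soleus, and Mmp27 of 0.18 and 0.0454 CPM. Between genotypes edgeR called 0 genes of either list in either muscle, and an unadjusted p under 0.05 was found for 6 of 17 other ADAMTS genes in the soleus and 3 in the TA, and for 3 of 9 and 5 of 12 other MMP genes, against 18.5% and 24.1% of all genes.
Of 9 other inhibitors and clearance genes 7 passed the filter in both muscles, with 5 higher and 0 lower in the WT soleus. The counts in ∆Ig3-MuSK mice were 3 higher and 0 lower. Spock3 had a log2 fold change of 1.44 (SE 0.19, edgeR adjusted p = 1.9e-08) and Lrp1, a receptor that clears proteases, of 1.12 (SE 0.17, edgeR adjusted p = 4.6e-07). Of 10 activators and plasmin genes, 6 were higher and 1 lower in the WT soleus, led by Hpn at 1.55 (SE 0.11, edgeR adjusted p = 1.5e-15), followed by Pcsk5 at 1.44 and Pcsk6 at 1.17. In the soleus of ∆Ig3-MuSK mice 5 of the 10 were higher and 2 lower. Plat, the tissue plasminogen activator, was the only gene of that list called between genotypes. It was at 8.69 CPM in WT soleus (6.08 to 11.9) and 6.05 in ∆Ig3-MuSK soleus (4.92 to 8.12), a log2 fold change of -0.54 (SE 0.12, edgeR adjusted p = 0.036).

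Substrates of these enzymes were mostly higher in the WT soleus than in the WT TA, where 30.2% of all genes were called higher and 27.3% lower. Of 9 proteoglycan and link genes that passed the filter in both muscles, 5 were higher and 1 lower, led by Comp at 3.03 (SE 0.37, edgeR adjusted p = 3.9e-09), Bgn at 1.76 and Fmod at 1.72. Among ∆Ig3-MuSK mice 6 of these 9 were higher in the soleus and 1 lower, against 28.5% and 27.6% of all genes. Comp and Fmod are tendon and cartilage matrix genes. The tendon markers summed to 262 to 687 CPM in WT soleus against 132 to 223 in WT TA, a difference whose part was not tested. Fmod is itself among those markers, with means of 199.5 CPM in WT soleus and 60.5 in WT TA, so the sum is not separate from it. Between genotypes in the soleus, 8 of 10 proteoglycan and link estimates were below 0 and 2 above, with a median log2 fold change of -0.23. An unadjusted p under 0.05 was found for 6 of these 10, against 18.5% of all genes. The only call was Ncan, which encodes the brain proteoglycan neurocan. It was scarce and higher in the mutant soleus, at 0.383 against 0.204 CPM, with a log2 fold change of 0.89 (SE 0.21, edgeR adjusted p = 0.041). The neuron markers given above also had higher estimates there, 4 of 5 with 2 called, and their part was not tested. Of 10 collagen genes, 7 were higher in the WT soleus and 0 lower, with Col1a1 at 1.05 (SE 0.25, edgeR adjusted p = 0.00035), Col1a2 at 0.95 and Col4a2 at 0.84. In ∆Ig3-MuSK mice 2 of 10 were higher and 1 lower, against 28.5% and 27.6% of all genes. Between genotypes in the soleus all 10 collagen estimates were below 0, with a median log2 fold change of -0.51, and 0 of 10 were called by edgeR, whereas all 10 had an unadjusted p under 0.05, against 18.5% of all genes.

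Adamts1 is known as a gene that can be induced rapidly, so the levels were also set beside those of immediate early genes, whose transcripts appear soon after a cell is stimulated. Their mean log2 CPM score over 12 genes was 3.52 ± 0.383 in WT soleus, 3.07 ± 0.412 in ∆Ig3-MuSK soleus, 2.47 ± 0.45 in WT TA and 2.45 ± 0.302 in ∆Ig3-MuSK TA. Of the 12 genes, 10 were higher and 1 lower in the WT soleus than in the WT TA, against 30.2% and 27.3% of all genes. Between the muscles of ∆Ig3-MuSK mice 9 were higher and 1 lower in the soleus, against 28.5% and 27.6%. Across the 18 libraries of a muscle, the score was compared with each of the 10 members, 20 relations in all, and none passed the correction. The largest r was that of Adamts1 in the TA, with Pearson's r of 0.482 (permutation p = 0.0468, adjusted 0.636), Spearman's rho of 0.362 (permutation p = 0.151, adjusted 0.73) and r of 0.231 without the 2 farthest libraries. Within genotypes that r was 0.81 in WT and 0.0812 in the mutant. For Adamts4 the r was 0.247 in the soleus and 0.248 in the TA (permutation p = 0.355 and 0.322, adjusted 0.636 for both). Without the 2 farthest libraries the Adamts4 r was 0.508 in the soleus and 0.0152 in the TA. Within genotypes it was 0.281 in WT and 0.238 in the mutant for the soleus, and 0.679 and -0.394 for the TA.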

How the data were processed

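Per the study's methods, the authors trimmed reads of unstranded libraries with Trimmomatic, aligned them to GRCm38 with GSNAP, counted them per gene with HTSeq, and deposited raw counts, 1 table per muscle. The counting mode and annotation release are not given in the sources used here. Symbols, positions and exon lengths came from a GRCm38 annotation. The tables held 0 columns of other samples and 0 rows without a gene.

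Counts were tested with edgeR 4.0.16 in R 4.3.3 (filterByExpr with a minimum count of 10 and a minimum total of 15, TMM factors, quasi-likelihood test, Benjamini-Hochberg adjustment over all genes). A gene was called at an adjusted p under 0.05 and at least a 1.2-fold change. Genotypes were fitted within each muscle, and muscles and the interaction in a single fit over 36 libraries, without a replicate term. Levels are CPM with TMM factors, and log2 CPM had a prior count of 2. Totals of 43492062 to 78660422 counts set the precision, and few reads fell on Adamts4 and Timp1. Correlations with immediate early genes used 100000 permutations within genotype.

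Alternatives were DESeq2 1.42.0, limma-voom (limma 3.58.1), other scaling factors, no filter, other designs, replicate blocks and leaving out each library. Leaving out single libraries or the high-Timp3 libraries took 75 fits. On simulated data the soleus genotype test recovered 99.5% of 200 genes changed by 1 on the log2 scale among 19311, and 5.24% of its calls were false. The changed genes were drawn only from those above a minimum mean count, and no simulated library was made to stand apart. The recovery therefore does not carry over to genes with few reads, such as Adamts4 and Timp1. Per the study, the 9 muscles of a group came from 9 animals. The members and lists were chosen with earlier results of these data known. Named were all members, the 5 genes most like Adamts4 in each muscle, and in each pathway list the called genes between genotypes and the 3 largest called differences between the WT muscles. Of these, 1 list gene is not reported here.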

Additional observations from a re-analysis of the deposited data

Results flagged for a closer look

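In each of 44 pairs of a gene and a group, the highest and the lowest of the 9 libraries were compared with the nearest other value, and a gap whose share of the group's range exceeded Dixon's critical value marked a library as standing apart. By chance this marks about 5% of groups, and 6 pairs were marked, each by its highest library. Adamts1 was at 56.8 CPM in WT soleus replicate 6, where the next library was at 37.1, and at 49.0 CPM in ∆Ig3-MuSK TA replicate 6, where the next was at 33.5. Adamts5 was at 21.2 CPM in WT soleus replicate 7, next to 16.7. In WT TA replicate 9, Adamts9 was at 8.60 CPM, next to 5.58, and Mmp2 at 52.5 CPM, next to 42.1. Musk was at 4.01 CPM in ∆Ig3-MuSK TA replicate 3, next to 3.15.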

How the results depend on the processing

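In the soleus 1 member was called between genotypes, against 4 with DESeq2, 3 with limma-voom, 2 in a single fit over 36 libraries, 4 with the replicate block and 0 without the high-Timp3 libraries, and 0 to 4 when single libraries were left out. In the TA 0 were called, against 1 (Adamts4) with limma-voom. The interaction gave 0 calls, against 1 with DESeq2 and 1 with limma-voom, both Adamts1, and 0 to 1 when single libraries were left out. Between muscles in the mutant 4 were called, against 2 with library totals, 1 without the high-Timp3 libraries, and 2 to 4 when single libraries were left out, and in WT 5 against 4 to 6. Leaving out the high-Timp3 libraries was chosen after seeing the data. Over all genes, edgeR called 71 higher and 114 lower in the soleus, DESeq2 162 and 324, limma-voom 263 and 390. In the TA these were 3 and 0, 164 and 61, and 120 and 30, and for the interaction 0 and 0, 550 and 247, and 401 and 558. Replicate numbers did not pair the WT and mutant libraries (correlations of -0.279 to 0.394). Label numbers correlated by over 0.1 in 2 of 8 WT and 5 of 8 mutant pairs, and 4 and 5 soleus libraries and 3 and 5 TA libraries correlated best with their own number. The replicate block by label number added Mmp14 in WT. Signs turned for differences near 0. With limma-voom the Timp3 interaction was 0.031, and the muscle difference in the mutant was -0.022 for Adamts9 and -0.0088 for Timp3, and for Timp3 in WT -0.04. Timp3 in the mutant was at -0.03 with the replicate block by label number and at -0.10 without the high-Timp3 libraries, where Timp2 between genotypes in the TA was at -0.012. With library totals Adamts5 in WT was at 0.15. When single libraries were left out, the genotype difference in the TA ran from -0.036 to 0.14 for Adamts15, from -0.082 to 0.00097 for Mmp2 and from -0.017 to 0.049 for Timp2. The interaction ran from -0.18 to 0.18 for Timp1 and from -0.15 to 0.065 for Timp3. The muscle difference ran from -0.025 to 0.082 for Timp3 in WT, and in the mutant from -0.0025 to 0.12 for Adamts15, -0.041 to 0.10 for Adamts9, -0.16 to 0.0091 for Timp2 and -0.11 to 0.10 for Timp3. The causes of these changes were not tested. Of 440 values of single members under other settings, 409 kept their direction and their side of the threshold, as did 1011 of 1080 with a library left out. Depth limits Adamts4 and Timp1, with as few as 9 and 7 counts in a library.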
